A study of Mus musculus with 9 samples.

Results

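Gene expression was compared between 3 libraries of mouse PT-22 cells at day 12 and 3 at day 6, which are 6 of the 9 libraries of the series, chosen by their labels and analysed across 16353 genes. PT-22 is a line labelled as proximal tubule of the kidney. The cells carry the alleles Pax2-/-, Pax8fl/fl and Rosa-CreERT2 together with the construct Pax8-pTRIPZ, an inducible lentiviral vector. Every group shares that genotype and vector, including the 3 untreated libraries of day 0, whose values stand beside some results as a description. Cells were grown to confluence, and day 6 cells had received 1 uM 4-hydroxytamoxifen, the ligand that activates CreERT2. Day 12 cells had received the same and then doxycycline at 1 ug/ml, renewed every 2 days for 6 days. The treatment protocol gives 2 days of 4-hydroxytamoxifen and the series design 6 days. The Rosa locus that carries CreERT2 is active in most cell types. Whether the line is 1 clone, and whether each replicate (A, B, C) came from its own culture, is not labelled. The p-values therefore cover only differences between libraries of a day, possibly technical ones. No day 12 library without doxycycline was analysed here, so doxycycline, induced Pax8 and 6 more days in culture cannot be told apart.

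PAX8 and its paralog PAX2 are paired-domain transcription factors that act from the earliest nephron progenitors onward and remain in epithelia of the adult tubule. They bind DNA through the paired domain and switch on renal genes such as the cadherin Cdh16 and the homeobox gene Lhx1. A tubule cell that loses its mature state after injury typically lowers transporters and raises chemokines, matrix and adhesion genes. Doxycycline, the inducer of tetracycline-controlled vectors, also inhibits protein synthesis on mitochondrial ribosomes, which make the few respiratory chain subunits that the mitochondrial genome encodes.

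Depth ran from 56398623 to 76018803 counts in these 6 libraries, with 21430 to 22139 genes detected, and limits only genes of very low level. Pax8 (GRCm38 chromosome 2, 24420560 to 24475599, minus strand) was measured at 399, 405 and 411 CPM at day 6 and 496, 503 and 487 CPM at day 12. All day 12 values lay above all day 6 values (log2 fold change 0.29 ± 0.029 (SE), edgeR adjusted p = 1.22e-06), after 291 ± 1.7 CPM at day 0 (CPM are counts scaled to a common library total, with TMM factors, here as mean ± SD of 3 libraries). The day 6 libraries are labelled as depleted, yet stood above day 0, so the libraries are called by their day. The labels do not name the deleted exons, so whole-gene counts check neither deletion, and vector and endogenous Pax8 reads fall in 1 count. Pax2 (GRCm38 chromosome 19, 44756045 to 44837871, plus strand), labelled as deleted, was measured at 47.9, 43.3 and 49.6 CPM at day 6 and 54.5, 53.7 and 48.6 CPM at day 12, and the groups overlapped (log2 fold change 0.16 ± 0.059 (SE), edgeR adjusted p = 0.0393). That call was lost with RLE scaling (adjusted p = 0.0525, edgeR) and without day 6 replicate A or B or day 12 replicate A or B (0.064 to 0.17). The Cre entry stood at 16.9, 17.8 and 17.6 CPM at day 6 and 21.2, 20.2 and 20 CPM at day 12, with no overlap and no test.

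The proximal tubule label was checked against its defining markers. Of 13 markers, 6 were at 0 in all day 6 libraries and 6 in all day 12 libraries, among them the phosphate transporter Slc34a1, the organic anion transporter Slc22a6 and the lactate transporter Slc5a12, which were at 0 in all 9. By means from day 6 to day 12, the water channel Aqp1 (324 to 328 CPM) and the peptidase Anpep (26.4 to 21.8 CPM) were present, as was the endocytic receptor Lrp2 (58.7 to 71.7 CPM, edgeR adjusted p = 0.0759, not called). The regulator Hnf4a had at most 0.0129 CPM in these 6 libraries. The summed level of the 13 was 390 to 428 CPM at day 6 and 392 to 452 CPM at day 12, and Aqp1 made up most of it on both days. At day 0, Aqp1, Anpep and Lrp2 had means of 119, 9.99 and 391 CPM. Markers of 4 endothelial genes summed to 0.0775 to 0.222 CPM, and those of 5 stromal genes to 2.63 to 3.26 CPM at day 6 and 6.23 to 7.35 CPM at day 12, where Dcn made up most. Pdgfrb, the larger part of that sum at day 6, fell from 2.45 to 1.52 CPM. Of the wider list of stromal and endothelial markers, 13 were tested, of which 2 rose and 5 fell (median -0.32). Of all genes tested, 22.6% rose and 22.7% fell. The 5 immune markers summed to 7.4 to 8.74 CPM and 12.9 to 13.5 CPM, nearly all of it Csf1r, while Cd3e was at 0 in all 9 libraries. Of 7 tested in the wider immune list, 2 rose and 3 fell (median -0.27), and Cd14, its most abundant member, fell from 83.4 ± 1.3 to 69.3 ± 1.1 CPM. In bulk RNA, fewer cells of a type and less RNA per cell cannot be told apart.

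Between day 6 and day 12, 3702 genes rose and 3706 fell at an edgeR adjusted p under 0.05, which is 22.6% and 22.7% of the genes tested, or 45.3% together. Libraries of day 6 and day 12 did not overlap in 53.9% of the genes. Most changes were small: the median size among called genes was 0.27 on the log2 scale, and 58.5% of calls were under 1.25-fold. At least 2-fold changes numbered 373 rises (2.28%) and 325 falls (1.99%), and 107 genes rose and 70 fell by at least 4-fold. The balance of rises and falls depended on the scaling. Rises were 50% of calls with TMM and 60.5% with upper-quartile scaling. They were 90.1% on log2(TPM + 1), with 7998 rises and 878 falls, where the median of all genes lay at 0.16, against 0.0084 with TMM. Where the median of a gene group on the TPM scale is given below, it is relative to that shift. Counts of rises and falls on the TPM scale include the shift.

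**Figure D1:**
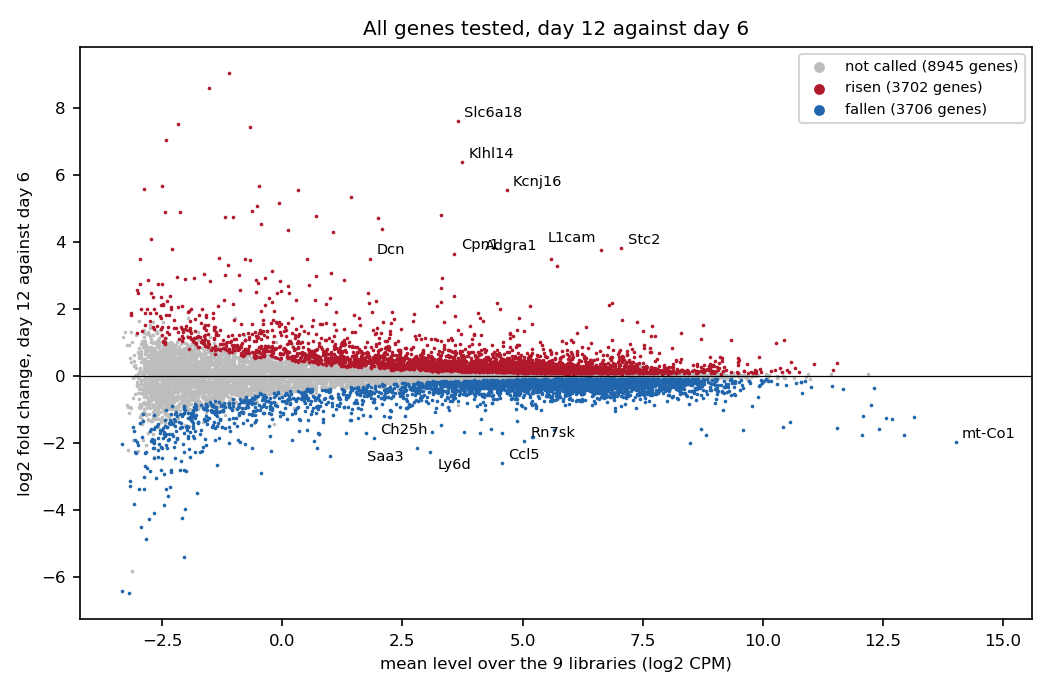
Log2 fold change of day 12 against day 6 (vertical) against mean level in log2 CPM over the 9 libraries (horizontal), 1 point per gene tested. The 3702 risen and 3706 fallen genes lie mostly close to 0, and Slc6a18, Klhl14 and Kcnj16 stand highest among the labelled genes.

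Among genes that reached 5 CPM, the largest rises were in Slc6a18, Klhl14 and Kcnj16, and the renal homeobox gene Lhx1 and klotho were among the 15 largest. Slc6a18 (GRCm38 chromosome 13, 73661752 to 73678023, minus strand), a brush border transporter of neutral amino acids, was measured at 0.0886, 0 and 0.0344 CPM at day 6 and 7.66, 8.47 and 8.4 CPM at day 12. Its day 6 level rests on 6, 0 and 2 counts, so that the fitted log2 fold change of 7.61 (edgeR adjusted p = 2.46e-11) has an uncertain size and its SE is left out. All 3 day 12 libraries lay far above it, and below the 29.2 ± 3.7 CPM of day 0. Kcnj16 (GRCm38 chromosome 11, 110968033 to 111027968, plus strand), a subunit of potassium channels of the basolateral tubule membrane, stood at 0.369, 0.243 and 0.516 CPM at day 6 and 16.5, 17.8 and 17.1 CPM at day 12 (log2 fold change 5.54 ± 0.11 (SE), edgeR adjusted p = 3.97e-14). Klhl14, which encodes a kelch-family adaptor, rested on 10, 13 and 13 counts at day 6 and rose from 0.182 ± 0.038 to 15.2 ± 0.52 CPM. Stc2 (GRCm38 chromosome 11, 31357307 to 31370074, minus strand), a secreted glycoprotein that inhibits the IGF-binding-protein protease PAPP-A, went from 11 ± 0.38 to 156 ± 0.93 CPM (log2 fold change 3.83 ± 0.035 (SE), edgeR adjusted p = 2.70e-18), with library values within 1 CPM of their mean on both days. L1cam, an adhesion molecule of axons and of the ureteric bud lineage, went from 5.57 ± 0.61 to 75.7 ± 2.8 CPM. A same-strand neighbour overlaps its exons.

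Among the rest of the 15 largest rises, Cpn1, the catalytic subunit of plasma carboxypeptidase N, went from 0.452 ± 0.19 to 5.72 ± 0.49 CPM, the small proteoglycan Dcn from 0.442 ± 0.065 to 5.08 ± 0.68 CPM, and the adhesion receptor Adgra1 from 0.886 ± 0.24 to 10.3 ± 0.20 CPM. Kl (GRCm38 chromosome 5, 150952607 to 150993817, plus strand), which encodes klotho, the co-receptor for FGF23 in the tubule, was measured at 3.94, 3.59 and 3.92 CPM at day 6 and 20.4, 18.9 and 21.3 CPM at day 12 (log2 fold change 2.40 ± 0.066 (SE), edgeR adjusted p = 1.65e-12), so that day 12 lay above the 11.4 CPM of day 0 as well. The small GTPase gene Rasl11b rose 9.85-fold, the kinesin gene Kif12 7.6-fold, the serine protease gene Prss12 7.28-fold and Prrt4, a transmembrane protein gene, 5.57-fold. Lhx1 (GRCm38 chromosome 11, 84518284 to 84525535, minus strand), a homeobox factor needed for the first tubules, stood at 3.53, 4.18 and 3.58 CPM at day 6 and 22.6, 25.8 and 22.1 CPM at day 12 (log2 fold change 2.64 ± 0.082 (SE), edgeR adjusted p = 5.02e-12). Its day 0 level was 2.12 CPM, below both later days. Ifit3b, an interferon-induced gene, rose from 2.04 ± 0.25 to 9.47 ± 0.91 CPM and has a near-identical neighbour, Ifit3, so reads may be split between them.

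The largest falls by the same rule included inflammatory and Ly6-family genes and RNAs of mitochondria and nuclei. Ccl5 (GRCm38 chromosome 11, 83525778 to 83530518, minus strand), a chemokine for T cells and monocytes, was measured at 60.9, 65.5 and 57.5 CPM at day 6 and 10.7, 11.2 and 8.17 CPM at day 12 (log2 fold change -2.61 ± 0.099 (SE), edgeR adjusted p = 6.69e-11). The 2 groups did not come near each other, and day 12 remained above the 0.644 CPM of day 0. Saa3, an acute-phase apolipoprotein, went from 17.3 ± 2.1 to 3.9 ± 0.21 CPM and Cxcl5, a neutrophil chemokine, from 83.3 ± 3.5 to 23.5 ± 0.80 CPM. Ch25h, which makes 25-hydroxycholesterol, went from 8.84 ± 0.91 to 2.44 ± 0.43 CPM. Among surface proteins with a glycolipid anchor, Ly6d fell from 21.1 ± 0.77 to 4.35 ± 0.58 CPM, Ly6c1 from 113 ± 5.0 to 37.3 ± 2.1 CPM and Psca from 5.78 ± 0.11 to 1.79 ± 0.15 CPM. The extracellular matrix gene Hmcn1 fell from 31.5 ± 6.2 to 9.98 ± 3.1 CPM and has a very long transcript. The remaining 7 of the 15 are transcripts of the mitochondrial genome (mt-Co1, mt-Nd4, mt-Cytb, mt-Nd4l and the ribosomal RNA mt-Rnr1) and the nuclear RNAs Rn7sk and Kcnq1ot1, described below.

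**Figure D2:**
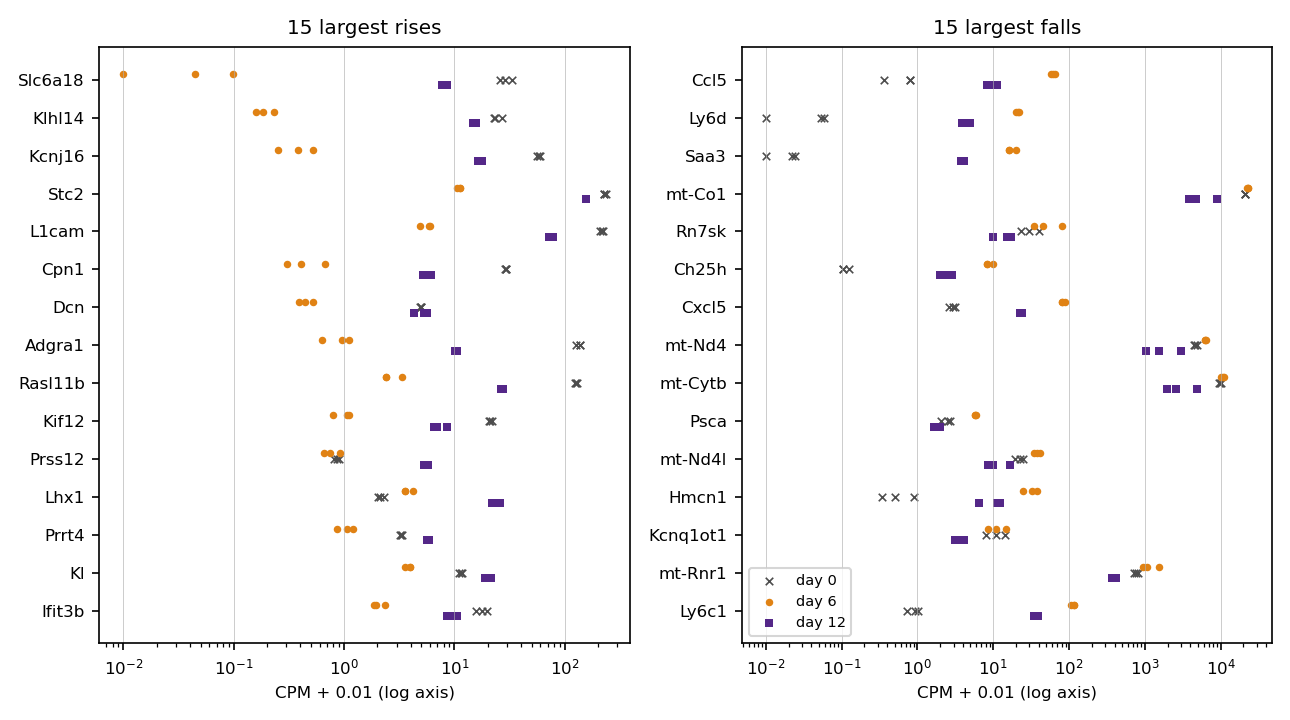
CPM + 0.01 on a log axis for the 15 genes with the largest rise (left) and fall (right), 1 point per library, with 3 libraries each for day 0, day 6 and day 12. Day 6 and day 12 points do not overlap for any gene shown, which the naming rule required, and day 12 Kl and Lhx1 lie above day 0.

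The 10 largest rises by difference in mean CPM were in nuclear genes of several kinds. The saposin precursor gene Psap rose from 2929 ± 42.1 to 3815 ± 119 CPM, the constitutive chaperone gene Hspa8 from 1768 ± 30.4 to 2284 ± 42.5 CPM, Hsp90aa1 from 1186 ± 32.3 to 1598 ± 22.3 CPM and Hsp90ab1 from 2466 ± 53.5 to 2819 ± 65.1 CPM. Adamts1, a protease of proteoglycans, went from 569 ± 14.1 to 1120.2 ± 51.9 CPM and Akap12, a scaffold for protein kinase A, from 345 ± 3.9 to 724 ± 17.2 CPM, still far below 3126 CPM at day 0. Col18a1, the source of endostatin, rose 1.5-fold, the matricellular gene Ccn1 2.44-fold, the stress-responsive gene Ndrg1 1.4-fold and the kelch protein gene Ivns1abp 2.17-fold. On the falling side stood fibronectin, Fn1, from 7696 ± 734 to 4205 ± 495 CPM, the large scaffold Ahnak from 1266 ± 121 to 686 ± 119 CPM and thrombospondin, Thbs1, from 1582 ± 47.1 to 1029 ± 46.8 CPM. Ly6a and Ly6e fell 2.03-fold and 1.26-fold. The ribosomal RNA model CT010467.1 fell from 12617 ± 4963 to 5438 ± 1362 CPM, with 18175 CPM in day 6 replicate C against 8629 and 11049 in replicates B and A.

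Genes reported to be regulated by PAX2 or PAX8 changed in most members. Of the 27 written in the list, 20 passed the count filter. Of those, 11 rose and 6 fell, against 22.6% and 22.7% of all genes, with a median log2 fold change of 0.36 against 0.0084 for all genes. A gene that passed the filter only through its high group had to differ, so these shares describe and do not test. The kidney-specific cadherin Cdh16 (GRCm38 chromosome 8, 104601911 to 104624396, minus strand) was measured at 121, 119 and 124 CPM at day 6 and 349.6, 345 and 352 CPM at day 12 (log2 fold change 1.52 ± 0.031 (SE), edgeR adjusted p = 4.31e-14), less than its 831 CPM at day 0. Cldn1, a tight junction protein of parietal cells, was measured at 32.8, 32.2 and 31.7 CPM at day 6 and 135, 143 and 143 CPM at day 12 (log2 fold change 2.12 ± 0.037 (SE), edgeR adjusted p = 6.59e-15), against 159 CPM at day 0. With Kcnj16 and Lhx1, these are 4 of the 5 members that rose by at least 2-fold. The other, the progenitor and podocyte factor Wt1, named because it completes the 5, had means of only 0.0566 and 0.268 CPM at day 6 and day 12. Cdh6, an early tubule cadherin, rose from 242 ± 0.31 to 306 ± 10.4 CPM. Eya1, a nephron progenitor coactivator, fell from 115 ± 2.9 to 69.6 ± 0.57 CPM. From TPM, on log2(TPM + 1), 11 rose and 2 fell, with the median 0.12 above that of all genes.

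Renal transcription factors did not move 1 way. Of 27 tested of 45, 11 rose and 8 fell (40.7% and 29.6%, against 22.6% and 22.7% of all genes). Beside Lhx1 and Eya1, the named members included Sim2, which rose from 42 ± 0.12 to 82.5 ± 1.3 CPM, and Tfcp2l1, a collecting duct factor, which fell from 103 ± 3.6 to 70.4 ± 2.5 CPM. The factor gene Maf, chosen after its values were seen, went from 226 to 149 CPM (log2 fold change -0.59 ± 0.043 (SE), edgeR adjusted p = 5.09e-08). Relative to all genes, the list's median lay at 0.18 on counts, -0.05 on log2(TPM + 1) and -0.003 on log2(TPM + 0.1). On log2(TPM + 1), with the shift included, 12 rose and 4 fell.

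Among proximal tubule genes, 23 of the 46 written passed the filter, and of these 9 rose and 5 fell. Those shares were 39.1% and 21.7%, beside 22.6% risen and 22.7% fallen of all genes. The limit from the filter given for the PAX list holds for the lists of this paragraph too. Of the 5 that rose by at least 2-fold, Slc6a18 alone reached 5 CPM. The vitamin D hydroxylase gene Cyp27b1 rested on 3, 3 and 5 counts at day 6 and went from 0.057 to 1.33 CPM, and Ggt1, which breaks down glutathione, went from 0.323 ± 0.10 to 2.19 ± 0.14 CPM. The brush border protease gene Mep1a fell from 7.22 ± 0.15 to 3.53 ± 0.31 CPM. Aqp1 was not called (log2 fold change 0.02). On log2(TPM + 1), 11 proximal tubule genes rose and 2 fell, with a relative median of 0.06. Podocyte and parietal markers rose in 10 of 15 tested and fell in 2 (66.7% and 13.3%), with a median of 0.49. Their relative median on log2(TPM + 1) was 0.29. Synpo, an actin-binding protein, was measured at 219.6, 212 and 222 CPM at day 6 and 318, 297 and 302 CPM at day 12 (log2 fold change 0.49 ± 0.033 (SE), edgeR adjusted p = 2.73e-08), Ncam1 rose from 15.5 ± 0.56 to 24.2 ± 1.2 CPM and the intracellular chloride channel family member Clic5 from 17.9 ± 0.75 to 25.9 ± 0.71 CPM. The slit diaphragm gene Nphs1, by contrast, had 0.544 and 0.671 CPM. Loop, distal tubule and collecting duct markers rose in 7 of 12 tested and fell in 2 (58.3% and 16.7%), with a relative median of 0.09 on log2(TPM + 1). Of these Car2 rose from 101 ± 3.7 to 126 ± 3.0 CPM, while the magnesium channel gene Trpm6 fell from 63.1 ± 3.0 to 45.7 ± 1.9 CPM. The defining genes of those segments, Umod, Slc12a1 and Aqp2, stayed under 0.1 CPM in each of the 6 libraries.

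**Figure D3:**
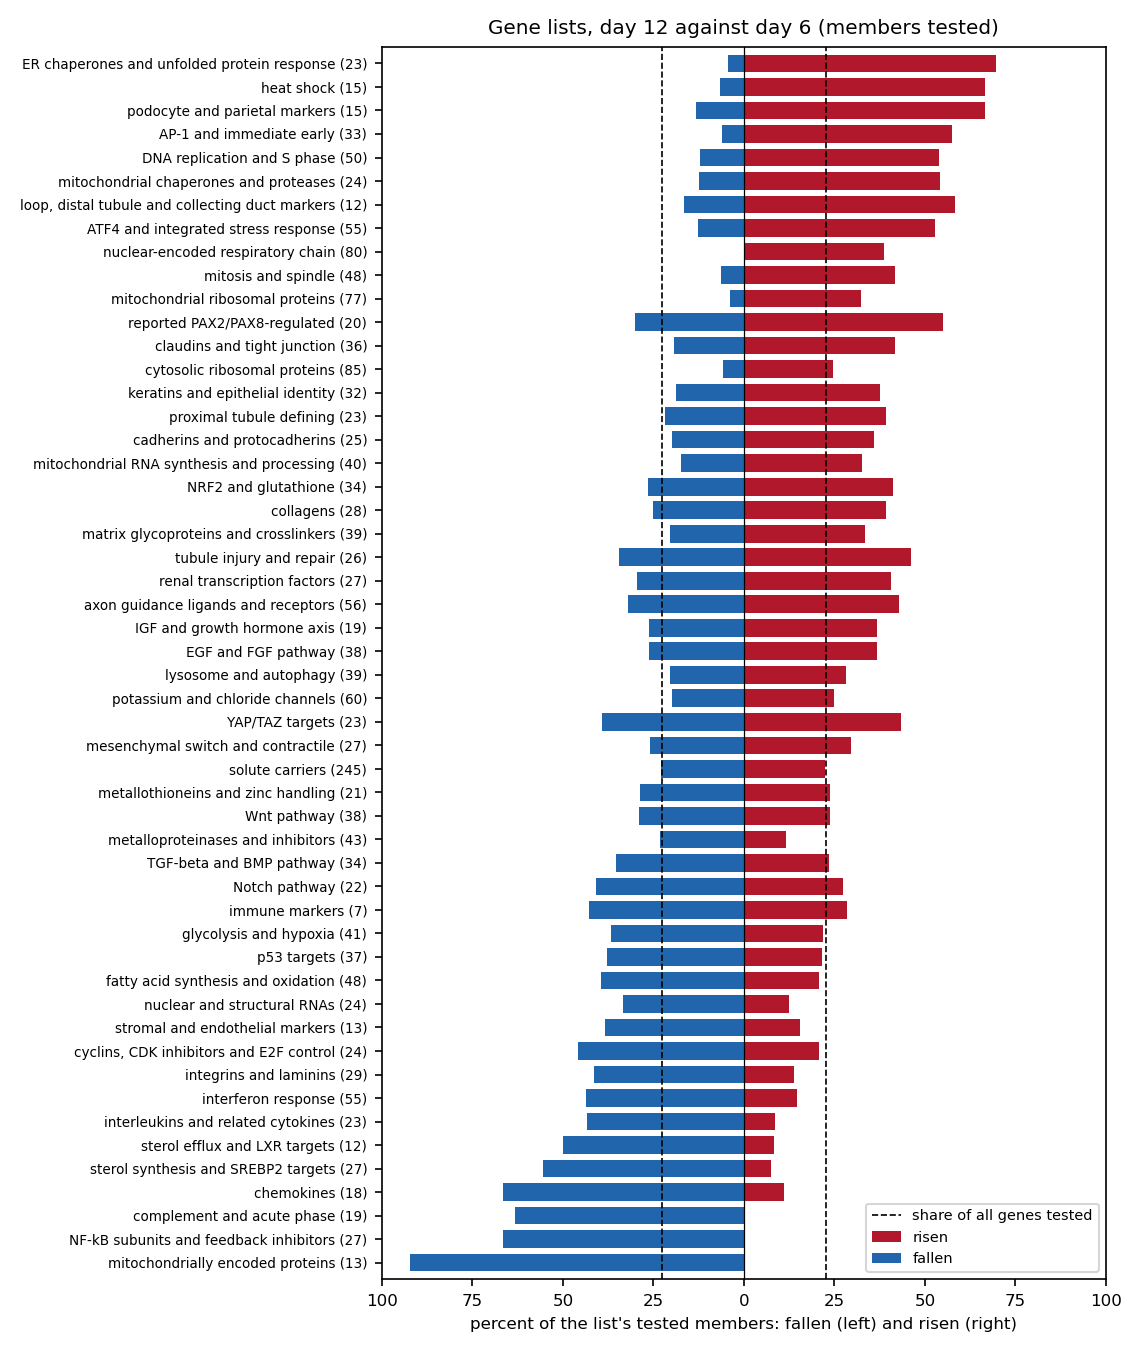
Percent of each list's tested members that rose (right) or fell (left) at an edgeR adjusted p under 0.05, with the number tested in brackets and dashed lines at the shares of all genes (22.6% and 22.7%). Endoplasmic reticulum chaperones, with 16 of 23 risen, stand at the top, and mitochondrially encoded proteins, with 12 of 13 fallen, at the bottom. Most lists shift toward rises on log2(TPM + 1).

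Stress and chaperone genes of several compartments rose from a day 6 level that lay under day 0 by list median. Median log2 fold changes against day 0 were -0.59 at day 6 and -0.43 at day 12 for the ATF4 list. They were -0.39 and -0.02 for endoplasmic reticulum chaperones, and -0.35 and -0.01 for heat shock genes. Of 55 tested members of the list of ATF4 and the integrated stress response, 29 rose and 7 fell (median 0.14). Those shares were 52.7% and 12.7%, beside 22.6% risen and 22.7% fallen of all genes. ATF4 is a factor whose translation increases when ribosome initiation is slowed, and its targets supply amino acids and tRNA synthetases. Beside Stc2, the list's named rises were the stress factor Atf3 at 17.5, 19.8 and 19.2 CPM at day 6 and 35.9, 40.3 and 39.3 CPM at day 12 (log2 fold change 1.03 ± 0.056 (SE), edgeR adjusted p = 2.63e-09), the factor Atf5 from 77.4 ± 3.5 to 119 ± 1.6 CPM and Slc3a2, the heavy chain of amino acid exchangers, from 171 ± 2.7 to 278 ± 6.0 CPM. The members that follow were chosen after their values were seen. Phgdh, which opens serine synthesis, went from 409 to 558 CPM (log2 fold change 0.45 ± 0.034 (SE), edgeR adjusted p = 8.25e-08). The mitochondrial folate enzymes Mthfd2 and Aldh1l2 went from 37.3 to 53.2 CPM and 54.7 to 71.7 CPM, and asparagine synthetase, Asns, from 38.4 to 49.5 CPM. Psat1 (186 to 181 CPM), the cystine transporter Slc7a11 (3.02 to 3.05 CPM) and Chac1 (14.8 to 16.4 CPM) were not called, and the glutamine transporter Slc38a2 fell from 1059.7 to 867 CPM. The TPM scale gave more rises, as 45 rose and 1 fell, with a relative median of 0.17.

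The promoters of the ATF4 list were searched for TTGCATC on both strands, the core of the composite site that ATF4 binds with C/EBP proteins, in windows from 250 bases before to 50 after the RefSeq start (GRCm38.p6). Of 44 tested members in the table, 13 held it (29.5%), against 2.38% of all tested genes. Of those 13, 5 rose and 1 fell, and of the 31 without it, 19 rose and 5 fell. The 2 holders with the largest rise are printed to show where the core, in capitals, lies. Atf3 has it 110 bases before the start. Slc1a4, chosen after its values were seen, encodes a neutral amino acid exchanger and went from 9.84 to 14.7 CPM (log2 fold change 0.58 ± 0.059 (SE), edgeR adjusted p = 1.85e-06) and has it across the start itself, from 4 bases before. The stretches are Atf3 at chr1:191183417-191183493 and Slc1a4 at chr11:20332691-20332767, both on the minus strand.
Atf3: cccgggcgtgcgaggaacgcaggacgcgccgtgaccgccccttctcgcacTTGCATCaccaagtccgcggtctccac
Slc1a4: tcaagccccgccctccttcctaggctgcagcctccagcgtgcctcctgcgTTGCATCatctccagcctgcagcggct
The same windows were searched for GCGTGAC and GCATGAC, cores of the site that paired domains bind. Neither was present in the 14 tested members of the PAX list that the table holds, against 6.09% of all tested genes with either, 6.21% of risen and 5.81% of fallen ones. A match is a run of letters and not a binding site, and no match describes only this window.

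Chaperones of the endoplasmic reticulum, which fold secreted proteins and rise in the unfolded protein response, rose in 16 of 23 tested members, and 1 fell (median 0.23). Those shares were 69.6% and 4.35%, beside 22.6% risen and 22.7% fallen of all genes. Hspa5, the central chaperone BiP, was measured at 524, 529.98 and 514 CPM at day 6 and 748, 784 and 767 CPM at day 12 (log2 fold change 0.55 ± 0.036 (SE), edgeR adjusted p = 1.58e-08). The disulfide isomerase gene Pdia4 went from 87.8 ± 2.1 to 126 ± 3.4 CPM and the secreted chaperone gene Creld2 from 68.5 ± 1.6 to 95.7 ± 1.1 CPM. The member that fell was the stress sensor gene Atf6, from 158 ± 3.5 to 116 ± 2.7 CPM. Sensors and degradation genes such as Ern1 (37.9 to 38.7 CPM), Sel1l (109.7 to 114 CPM) and Herpud1 (87 to 91.2 CPM), chosen after their values were seen, were not called. Heat shock genes of the cytosol rose in 10 of 15 and fell in 1 (median 0.18), with the small heat shock genes Cryab from 59.3 ± 0.35 to 94.6 ± 1.7 CPM and Hspb1 from 110.00 ± 1.7 to 172 ± 6.3 CPM, and the HSP70 partner Hsph1 from 116 ± 2.4 to 155 ± 1.1 CPM. The classical inducible genes Hspa1a (28.3 to 28.8 CPM) and Dnajb1 (69.8 to 71.8 CPM), chosen after their values were seen, were not called. From TPM, 22 of the 23 and all 15 rose.

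Immediate early genes, the first to respond to growth factors and stress, rose in 19 of 33 tested and fell in 2 (median 0.34). Those shares were 57.6% and 6.06%, beside 22.6% risen and 22.7% fallen of all genes. The MAP kinase phosphatase gene Dusp1 stood at 80.7, 77 and 83.7 CPM at day 6 and 153, 146 and 145 CPM at day 12 (log2 fold change 0.88 ± 0.059 (SE), edgeR adjusted p = 2.36e-08), and Phlda1 rose from 21.9 ± 1.5 to 40 ± 1.7 CPM. Egr1 (77.1 to 130.2 CPM) and Jun (60.4 to 89.5 CPM), chosen after their values were seen, rose by 0.75 and 0.57 on the log2 scale. Klf4, a factor of epithelial differentiation, fell from 33.5 ± 0.33 to 21.3 ± 0.55 CPM. Targets of p53 fell in 14 of 37 tested (37.8%) and rose in 8 (21.6%, near the share of all genes). Without the length trend, 24 fell and 7 rose. On log2(TPM + 1) the counts turned to 4 and 18, with a relative median of -0.06. Perp, a desmosomal target, fell from 94.3 ± 2.5 to 64.6 ± 2.8 CPM and Trp53inp1 from 194 ± 5.9 to 140.1 ± 5.3 CPM, whereas Btg2 rose from 63.3 ± 1.6 to 99.6 ± 7.0 CPM and the kinase gene Plk2 from 89.6 ± 4.5 to 134 ± 3.8 CPM. NRF2 and glutathione genes rose in 14 and fell in 9 of 34 (41.2% and 26.5%), with 9 rises without day 6 replicate C or without the length trend. Of these the glutathione transferase Gstm1 rose from 192 ± 4.8 to 403 ± 14.2 CPM, glutathione reductase, Gsr, from 69.2 ± 2.4 to 104 ± 2.5 CPM, the epoxide hydrolase Ephx1 from 138 ± 4.4 to 206 ± 7.7 CPM and catalase, Cat, from 89.8 ± 1.0 to 115 ± 2.7 CPM.

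Chemokine, NF-kB and complement genes fell in most of their tested members, where 22.7% of all genes fell and 22.6% rose. Chemokines fell in 12 of 18 tested and rose in 2 (median -0.72), and on log2(TPM + 1) 3 rose and 11 fell, with a relative median of -0.59. Beside Ccl5 and Cxcl5, the monocyte attractant Ccl2 was measured at 136, 157 and 135 CPM at day 6 and 87.4, 89.5 and 86.4 CPM at day 12 (log2 fold change -0.70 ± 0.048 (SE), edgeR adjusted p = 3.08e-08), and the interferon-induced Cxcl10 fell from 67.1 ± 0.53 to 33.4 ± 2.0 CPM. Both remained above day 0, at 4.56 and 25.4 CPM. NF-kB subunits, inhibitors and direct targets fell in 18 of 27 tested and rose in none by edgeR, with 0 risen also at an unadjusted p under 0.05 and by DESeq2. The adhesion receptor Icam1 fell from 5.68 ± 0.24 to 2.31 ± 0.096 CPM, the inhibitor gene Nfkbie from 49.4 ± 2.1 to 30.7 ± 0.90 CPM, Tnfaip2 from 57.9 ± 4.0 to 38 ± 0.35 CPM and the subunit gene Rel from 35.4 ± 1.9 to 24.2 ± 0.48 CPM. The subunit genes Rela (184 to 187 CPM) and the kinase genes Chuk (104 to 103 CPM) and Ikbkb (75.1 to 73.1 CPM), chosen after their values were seen, were not called. When the length trend was removed, 1 rose and 17 fell. On log2(TPM + 1), 7 rose and 10 fell, with a median of -0.17 relative to all genes.

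Complement and acute-phase genes fell in 12 of 19 tested and rose in none by edgeR, with 0 risen also at an unadjusted p under 0.05 and by DESeq2. Complement C3 was measured at 646, 718 and 654 CPM at day 6 and 402, 375 and 360.2 CPM at day 12 (log2 fold change -0.83 ± 0.047 (SE), edgeR adjusted p = 4.33e-09), the protease gene C1s1 fell from 234 ± 12.3 to 152 ± 3.1 CPM and Lbp, which binds lipopolysaccharide, from 87.3 ± 3.2 to 59.2 ± 1.7 CPM. Without day 6 replicate B, 1 rose and 11 fell. The TPM scale gave 3 rises and 7 falls. Interleukins and related cytokines fell in 10 of 23 and rose in 2, but the falls were 4 without day 6 replicate B, 5 without day 12 replicate A or C and 6 with upper-quartile scaling. Their median was -0.17 and their mean 0.20, of the other sign. On log2(TPM + 0.1), 4 rose and 3 fell. Tnfsf15 went from 11.2 ± 0.80 to 5.97 ± 0.19 CPM and the cytokine Clcf1 from 61.2 ± 8.5 to 39.8 ± 5.6 CPM, while osteopontin, Spp1, fell from 2252 ± 52.8 to 1942 ± 55.3 CPM. The IL-33 receptor gene Il1rl1 rose from 3.39 ± 0.028 to 15.4 ± 1.6 CPM. Interferon response genes were split, with 24 of 55 fallen and 8 risen (43.6% and 14.5%, beside 22.7% and 22.6% of all genes). On log2(TPM + 1), 17 rose and 13 fell, with a relative median of -0.17. Parp14 fell from 59.4 ± 0.79 to 33.6 ± 1.8 CPM, and Rsad2 and Ifit1, chosen after their values were seen, from 8.18 to 3.48 CPM and 16.6 to 7.89 CPM. The factor gene Irf8 rose from 9.09 ± 0.20 to 21.6 ± 0.75 CPM, and Ifit3, likewise chosen afterwards, from 11.7 to 28.1 CPM (log2 fold change 1.26 ± 0.071 (SE), edgeR adjusted p = 4.27e-09). Ifit1 and Ifit3, 2 genes usually induced together, thus moved in opposite directions.

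Injury and repair genes rose in 12 and fell in 9 of 26 tested (46.2% and 34.6%, beside 22.6% and 22.7% of all genes). Havcr1, which encodes the injury marker KIM-1, rested on 13, 4 and 12 counts at day 6 and was measured at 0.192, 0.054 and 0.207 CPM at day 6 and 4.04, 3.42 and 4.16 CPM at day 12 (log2 fold change 4.72 ± 0.22 (SE), edgeR adjusted p = 5.17e-10). The day 12 libraries all lay above day 6 and under the 7.64 CPM of day 0. Sema5a rose from 18 ± 0.56 to 50.2 ± 3.3 CPM, Dcdc2a from 115 ± 5.4 to 190.2 ± 2.1 CPM and Krt20 from 6.47 ± 0.52 to 11.1 ± 0.82 CPM. Vcam1, Cd44 and Lcn2, other injury genes chosen after their values were seen, fell from 68.4 to 48.3 CPM, 191 to 136 CPM and 6.14 to 4.42 CPM.

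Of 13 protein genes encoded in mitochondria, 12 fell (92.3%, beside 22.7% of all genes). The cytochrome oxidase subunit mt-Co1 was measured at 22829.9, 22855 and 22574 CPM at day 6 and 4774, 8857 and 3766 CPM at day 12 (log2 fold change -1.97 ± 0.21 (SE), edgeR adjusted p = 2.52e-06). Replicate B was the highest day 12 library, and all 3 lay below day 6. The apocytochrome gene mt-Cytb stood at 11202, 10737 and 9951 CPM at day 6 and 2593, 4932 and 1978 CPM at day 12 and the complex I gene mt-Nd4 at 6346, 6222 and 6244 CPM at day 6 and 1528, 3012 and 1048 CPM at day 12. The complex I genes mt-Nd6, encoded on the other strand, and mt-Nd5 changed by -1.58 and -1.56, mt-Nd1 and mt-Nd2 by -1.24 and -1.19, and mt-Co2 by -1.36. A run of 4 neighbours departed from this. The ATP synthase genes mt-Atp8 and mt-Atp6 changed by -0.26 and -0.50 and mt-Co3 by -0.29, while mt-Nd3 stood at 183, 149 and 158 CPM at day 6 and 174, 185 and 161 CPM at day 12 and was not called (log2 fold change 0.09 ± 0.062 (SE), edgeR adjusted p = 0.267). It was called as risen without day 6 replicate A (log2 fold change 0.18, edgeR adjusted p = 0.0121), without a filter on low counts (adjusted p = 0.0372) and on log2(TPM + 1) (limma adjusted p = 0.0339). Over all alternatives its adjusted p was 0.0121 to 0.754. Next to them, mt-Nd4l changed by -1.69. The 13 genes held 6.27% ± 0.14 of the counts at day 6 and 2.47% ± 0.9 at day 12, with 2.12%, 3.49% and 1.79% in replicates A, B and C. Without day 12 replicate B, the median log2 fold change of the 13 was -1.84 in place of -1.36. From TPM, 10 of the 13 fell and 1 rose.

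Nuclear copies of mitochondrial sequence share reads with some of these genes. Of the 50-base words of mt-Co2, mt-Co3, mt-Atp6, mt-Nd4l and mt-Nd3, 98% to 100% also occur in nuclear gene models, and none of those of mt-Nd1, mt-Nd6, mt-Cytb and mt-Atp8. The shared part was 62.2% for mt-Nd4, 51.1% for mt-Co1, 8.19% for mt-Nd2 and 7.61% for mt-Nd5. The models changed as follows: Gm28661, a copy of mt-Co2, fell from 6729.5 ± 204 to 2256 ± 1094 CPM, Gm28437, a copy of mt-Co3, from 3833 ± 145 to 2947 ± 213 CPM and Gm10925, a copy of mt-Atp6, from 5409 ± 52.3 to 4201 ± 421 CPM, while Gm28438, a copy of mt-Nd3 named afterwards, rose from 1100.2 ± 14 to 1246 ± 54.7 CPM. Summed with their copies that passed the filter, mt-Co1 changed by -1.97 and mt-Nd4 by -1.77 (log2 ratio of the summed means). By the same measure mt-Co2 changed by -1.53, mt-Atp6 by -0.40, mt-Co3 by -0.34 and mt-Nd3 by 0.17, so the run of 4 kept its smaller change. Of that run, mt-Atp8 has no such copy.

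**Figure D4:**
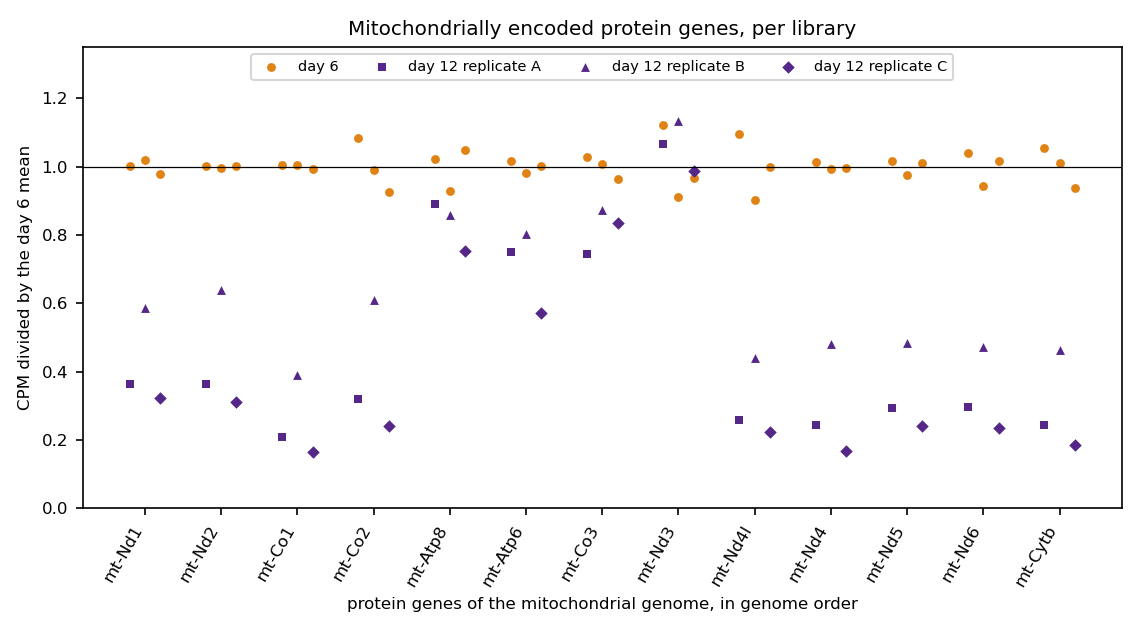
CPM of the 13 mitochondrially encoded protein genes in genome order, each library divided by the day 6 mean of that gene, with day 6 as circles and the 3 day 12 replicates as separate symbols. From mt-Atp8 to mt-Nd3 the day 12 libraries lie closest to day 6, and replicate B is the highest day 12 library in each of the other 9 genes.

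Nuclear genes of the organelle rose more often than they fell, by small amounts, where 22.6% of all genes rose and 22.7% fell. For the respiratory chain this balance was lost when the length trend was removed. Respiratory chain subunits rose in 31 of 80 tested and fell in none by edgeR (median 0.08), with 2 falls at an unadjusted p under 0.05, 2 by DESeq2 or with RLE scaling and 1 in the 6 libraries alone or without day 6 replicate C. On log2(TPM + 1), 79 rose. Ndufa4 rose from 85.6 ± 0.97 to 107 ± 2.8 CPM, Ndufb2 from 19.8 ± 0.44 to 27 ± 1.5 CPM and Cox6c from 124 ± 2.5 to 151 ± 6.3 CPM. When the trend of each library on transcript length was removed, 12 rose and 12 fell. Mitochondrial ribosomal proteins rose in 25 and fell in 3 of 77 (32.5% and 3.9%), and in 14 and 7 without the length trend. Without day 6 replicate C, 16 rose, and on log2(TPM + 1) 73. Mrps6 and Mrpl42 were the members with the smallest adjusted p, and rose from 90.3 ± 0.78 to 111 ± 4.2 CPM and 31.8 ± 1.4 to 40.4 ± 1.0 CPM. Mitochondrial chaperones and proteases rose in 13 and fell in 3 of 24 with and without that trend. The HSP90 of mitochondria, Trap1, was measured at 89.6, 89.3 and 90.4 CPM at day 6 and 114, 119 and 122 CPM at day 12 (log2 fold change 0.40 ± 0.033 (SE), edgeR adjusted p = 2.57e-07), and Oma1, the protease that relays mitochondrial stress, at 6.4, 6.66 and 6.32 CPM at day 6 and 11.7, 10.8 and 11.4 CPM at day 12 (log2 fold change 0.80 ± 0.059 (SE), edgeR adjusted p = 6.26e-08). The paraplegin gene Spg7 rose from 39.9 ± 1.3 to 50 ± 1.2 CPM and the cochaperone gene Dnaja3 from 77.2 ± 0.62 to 92.3 ± 1.1 CPM. Of 40 genes for mitochondrial RNA synthesis and processing, 13 rose and 7 fell (32.5% and 17.5%). The nuclease gene Mgme1 rose from 16.8 ± 0.92 to 23.2 ± 0.89 CPM, the rRNA methyltransferase gene Tfb1m from 5.61 ± 0.32 to 7.75 ± 0.82 CPM and the topoisomerase gene Top1mt from 13.5 ± 0.22 to 17 ± 1.1 CPM, while Elac2, which trims mitochondrial tRNAs, fell from 43.5 ± 1.7 to 35.7 ± 1.4 CPM. The polymerase gene Polrmt (31 to 35.4 CPM), chosen after its values were seen, rose by 0.19 on the log2 scale.

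Sterol synthesis genes fell. Of 27 tested, 15 fell and 2 rose (median -0.21). Those shares were 55.6% and 7.41%, beside 22.7% fallen and 22.6% risen of all genes. On log2(TPM + 1), 10 rose and 9 fell, with a relative median of -0.20. Insig1, which holds SREBP in the endoplasmic reticulum, was measured at 124, 127 and 124 CPM at day 6 and 83.5, 78.7 and 84.2 CPM at day 12 (log2 fold change -0.61 ± 0.033 (SE), edgeR adjusted p = 2.97e-09). The factor gene Srebf2 itself, chosen after its values were seen, went from 578 to 414 CPM. Mylip, which encodes a ubiquitin ligase, fell as well, from 37.4 ± 0.41 to 23.1 ± 0.87 CPM. Genes of sterol efflux fell in 6 of 12 and rose in 1, Apoe, from 10.1 ± 1.3 to 17.2 ± 0.76 CPM, and on log2(TPM + 1) 2 fell and 2 rose. Fatty acid genes fell in 19 and rose in 10 of 48 tested (39.6% and 20.8%, the risen share near that of all genes). That balance turned to 4 and 27 on log2(TPM + 1), with a relative median of -0.01. The desaturase gene Scd1 fell from 243 ± 4.7 to 179.97 ± 5.5 CPM and the oxidation genes Echs1 and Acadm from 79.4 ± 3.2 to 62.9 ± 1.2 CPM and 138 ± 0.70 to 116 ± 2.6 CPM, while Fads2 rose from 186 ± 0.47 to 226 ± 4.3 CPM. Glycolysis and hypoxia genes fell in 15 and rose in 9 of 41 (36.6% and 22%, the risen share again near that of all genes). On log2(TPM + 1), 7 fell and 23 rose (relative median 0.004). Aldoc fell from 48.9 ± 1.7 to 33.1 ± 1.8 CPM, whereas the prolyl hydroxylase genes of collagen, P4ha1 and P4ha2, rose from 90.1 ± 3.4 to 175 ± 8.6 CPM and 50.7 ± 1.2 to 70.8 ± 2.4 CPM. The metallothionein genes Mt1 and Mt2 fell from 191 ± 6.2 to 145 ± 2.2 CPM and 86.6 ± 2.4 to 49.6 ± 2.3 CPM.

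Mitosis and spindle genes rose in 20 and fell in 3 of 48 tested, by a median of 0.08. Those shares were 41.7% and 6.25%, beside 22.6% risen and 22.7% fallen of all genes. The kinetochore gene Spc25 rose from 30.5 ± 2.0 to 45 ± 3.8 CPM and the checkpoint gene Mad2l1 from 48.1 ± 0.95 to 58.4 ± 2.4 CPM. The 3 that fell were Foxm1, named because only 3 did, and Mki67 and Cenpf, both with long transcripts. Mki67 went from 174 ± 9.8 to 118 ± 9.9 CPM and Cenpf from 99 ± 3.1 to 67.7 ± 6.6 CPM. Replication genes rose in 27 and fell in 6 of 50 (median 0.10). The polymerase gene Pold1 was measured at 68.1, 63.6 and 68.8 CPM at day 6 and 100.1, 96.4 and 91.2 CPM at day 12 (log2 fold change 0.52 ± 0.040 (SE), edgeR adjusted p = 8.45e-08). The factor gene E2f1, the helicase subunit gene Cdc45 and the reductase gene Rrm2 rose from 37.6 ± 0.70 to 49.1 ± 0.49 CPM, 38.6 ± 0.85 to 48.7 ± 0.21 CPM and 39.3 ± 1.3 to 50 ± 1.6 CPM. Of 24 cyclins, inhibitors and E2F controls, 11 fell and 5 rose (45.8% and 20.8%, the risen share near that of all genes). The falls numbered 4 with upper-quartile scaling or without day 6 replicate A, 7 without day 6 replicate B or day 12 replicate A or B, and 1 on log2(TPM + 1). Cdk6, the kinase partner of D cyclins, fell from 199 ± 12.1 to 121 ± 7.9 CPM and Ccnd3 rose from 48.9 ± 1.1 to 61.8 ± 0.89 CPM. The 1 member that rose by at least 2-fold was Mycn, chosen after its values were seen, from 0.401 to 1.23 CPM. Cytosolic ribosomal proteins rose in 21 (24.7%, near the share of all genes) and fell in 5 (5.88%) of 85. The rises numbered 14 without day 12 replicate C and 35 with upper-quartile scaling. When the length trend was removed, the counts reversed, as 11 rose and 28 fell.

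Adhesion and matrix genes moved in both directions, beside 22.6% risen and 22.7% fallen of all genes. Claudins and tight junction genes rose in 15 and fell in 7 of 36 tested, with a median of 0.11 that was -0.002 without day 12 replicate B. Cldn2, the cation pore of the proximal tubule, rose from 1 ± 0.14 to 2.96 ± 0.53 CPM and Cldn12 from 52.9 ± 2.2 to 72.9 ± 1.9 CPM. Cadherins rose in 9 and fell in 5 of 25, with Cdh3 up from 54 ± 0.54 to 82.1 ± 5.1 CPM and Cdh13 down from 29.8 ± 1.4 to 20.1 ± 0.95 CPM. Cdh1 (0.387 to 0.648 CPM), chosen after its values were seen, stood at a very low level. Keratins and other epithelial genes rose in 12 and fell in 6 of 32, with Krt80 up from 21.8 ± 1.3 to 33.3 ± 2.0 CPM and the splicing factor gene Esrp2 from 2.72 ± 0.18 to 4.13 ± 0.21 CPM. Collagens rose in 11 and fell in 7 of 28, with a median near that of all genes (-0.01). The glomerular basement membrane chains Col4a3 and Col4a4, which are neighbours transcribed from 1 region, were measured at 4.45, 4.74 and 5.51 CPM at day 6 and 16.2, 13.3 and 16.4 CPM at day 12 and at 7.27, 7.45 and 7.61 CPM at day 6 and 24.5, 24.1 and 25.4 CPM at day 12, both called (log2 fold changes 1.65 and 1.73, edgeR adjusted p = 2.94e-09 and 2.53e-12). The beaded-filament collagen gene Col6a1 fell from 543 ± 20 to 378 ± 12.9 CPM. Matrix glycoproteins rose in 13 and fell in 8 of 39, with Tgfbi up from 8.2 ± 0.99 to 19.1 ± 0.32 CPM and Ltbp2 down from 91.5 ± 2.8 to 54.9 ± 4.0 CPM. Integrins and laminins fell in 12 and rose in 4 of 29. On log2(TPM + 1), 8 rose and 5 fell, with a relative median of -0.12. The collagen receptor gene Itga2 fell from 66.8 ± 3.2 to 39.6 ± 3.0 CPM, the fibronectin receptor gene Itga5 from 115 ± 3.3 to 82.3 ± 2.2 CPM and Itga9 from 66.2 ± 0.90 to 47.7 ± 1.6 CPM, while Lama1, a laminin chain of the embryonic kidney, rose from 11 ± 0.39 to 28.5 ± 2.3 CPM. Mesenchymal genes rose in 8 and fell in 7 of 27, in 6 and 7 without day 6 replicate A or C or day 12 replicate B, in 7 and 9 without the length trend, and in 15 and 3 on log2(TPM + 1). Tagln rose from 37.7 ± 2.3 to 58.6 ± 5.7 CPM, and S100a4 and the repressor gene Zeb1 fell from 60.5 ± 2.6 to 38.9 ± 2.4 CPM and 93.7 ± 2.2 to 73.7 ± 1.7 CPM. Metalloproteinases and inhibitors fell in 10 and rose in 5 of 43, and in 5 and 14 on log2(TPM + 1) (relative median -0.07). Mmp14 fell from 236 ± 2.5 to 176 ± 3.9 CPM, and Mmp15 and Adamts5 rose from 12.9 ± 0.76 to 26.4 ± 1.0 CPM and 143 ± 4.5 to 253 ± 11.1 CPM.

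Genes of the signalling lists moved in both directions, beside 22.6% risen and 22.7% fallen of all genes. In the Wnt list, 9 of 38 tested rose and 11 fell (23.7% and 28.9%), shares not far from those of all genes. The ligand genes Wnt9a and Wnt5b rose from 44.2 ± 2.0 to 92.4 ± 5.7 CPM and 7.79 ± 0.30 to 18.7 ± 1.7 CPM and the coreceptor gene Lrp5 from 115 ± 1.0 to 149 ± 0.99 CPM, while the nuclear effector gene Lef1 fell from 11.2 ± 0.66 to 5.83 ± 0.51 CPM. Axin2, a feedback target chosen after its values were seen, fell from 12.3 to 7.97 CPM. In the TGF-beta and BMP list, 8 of 34 rose and 12 fell (23.5% and 35.3%). The activin antagonist genes Fst and Fstl3 rose from 2.12 ± 0.12 to 4.54 ± 0.29 CPM and 10.9 ± 0.29 to 18.1 ± 0.69 CPM and the ligand gene Bmp3 from 8.93 ± 0.59 to 19.4 ± 1.1 CPM, and the BMP target gene Id2 fell from 170.4 ± 3.1 to 124 ± 2.5 CPM. Notch genes rose in 6 and fell in 9 of 22, where the DNA-binding partner gene Rbpj fell from 156 ± 1.4 to 121 ± 1.5 CPM, Lfng from 61.3 ± 1.5 to 46.3 ± 1.7 CPM and Maml3 from 50.2 ± 0.26 to 39.7 ± 0.91 CPM, while the target gene Hes1 rose from 10.7 ± 0.49 to 15.9 ± 0.15 CPM. EGF and FGF genes rose in 14 and fell in 10 of 38. The receptor inhibitor gene Errfi1 was measured at 66.5, 67.1 and 63.8 CPM at day 6 and 132, 143 and 138 CPM at day 12 (log2 fold change 1.07 ± 0.038 (SE), edgeR adjusted p = 3.09e-11), Hbegf rose from 22 ± 0.90 to 33.5 ± 0.87 CPM and Fgf18 from 0.814 ± 0.19 to 3.05 ± 0.32 CPM, and Fgf7, a ligand that stroma usually makes, fell from 34.2 ± 2.4 to 16.9 ± 0.83 CPM. In the IGF list, 7 of 19 rose and 5 fell. Igfbp2 was measured at 16.5, 19.5 and 17.6 CPM at day 6 and 73.4, 84.6 and 73 CPM at day 12 (log2 fold change 2.11 ± 0.071 (SE), edgeR adjusted p = 1.43e-11), above its 11.8 CPM at day 0, and Pappa, the protease that STC2 inhibits, fell from 10 ± 1.3 to 6.14 ± 0.67 CPM. YAP/TAZ targets rose in 10 and fell in 9 of 23, with Ccn2 up from 133 ± 8.2 to 233 ± 13.3 CPM, F3, which encodes tissue factor, from 101 ± 3.1 to 181 ± 11.4 CPM and Wwc1 from 226 ± 7.1 to 321 ± 9.6 CPM. Axon guidance genes rose in 24 and fell in 18 of 56, with Efnb2 up from 84.7 ± 2.9 to 126 ± 2.3 CPM and Sema3d from 55 ± 0.90 to 81.1 ± 0.48 CPM. On log2(TPM + 1), where 90.1% of the calls over all genes were rises, rises outnumbered falls in each of these 7 lists. Their relative medians there ran from -0.07 (Notch) to 0.06 (YAP/TAZ targets).

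Of 245 solute carriers tested, 55 rose and 56 fell, shares near those of all genes. With upper-quartile scaling 70 rose and 45 fell, and on log2(TPM + 1) 116 and 11, with a relative median of -0.01. The membrane transporter gene Slc4a11 rose from 8.11 ± 0.75 to 19.8 ± 0.49 CPM, and Slc12a2, the sodium, potassium and chloride cotransporter, fell from 276 ± 13.6 to 163 ± 8.4 CPM. The zinc transporter gene Slc39a10 rose from 38.2 ± 0.63 to 55.4 ± 1.8 CPM. Slc30a7 fell from 97.2 ± 1.5 to 79.3 ± 3.5 CPM on counts and rose on log2(TPM + 1) by 0.38. Potassium and chloride channels rose in 15 and fell in 12 of 60 (25% and 20%), also near the shares of all genes. The chloride channel gene Cftr was measured at 2.01, 2.05 and 2.27 CPM at day 6 and 8.12, 8.75 and 8.58 CPM at day 12 (log2 fold change 2.01 ± 0.066 (SE), edgeR adjusted p = 1.13e-11), well below 58.5 CPM at day 0, and Kcnk5 rose from 111 ± 2.1 to 170.02 ± 4.6 CPM. Lysosome genes rose in 11 and fell in 8 of 39 (28.2% and 20.5%, beside 22.6% and 22.7% of all genes), or in 9 and 10 without the length trend. Ctsl rose from 657 ± 31.1 to 833 ± 9.7 CPM and Hexa from 165 ± 7.3 to 204 ± 3.5 CPM. Wipi1, an early autophagy factor, fell from 52.8 ± 1.1 to 40.9 ± 1.7 CPM.

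Calls also followed the length and type of the transcript. When the genes tested were divided into 5 classes by length, of the shortest class (177 to 1560 bases), 18.5% rose and 8.62% fell, and of the longest (4901 to 123179 bases), 16.6% rose and 45.2% fell. The median log2 fold change went from 0.076 to -0.097 across the 5 classes. Removing the trend left 3474 rises and 3852 falls, of which 6245 were calls of the same direction as before. Fn1, Ahnak, Hmcn1, Mki67 and Cenpf, which have long transcripts, were still called. The part of RNA quality in this pattern was not tested. Of 24 nuclear and structural RNAs tested, 8 fell and 3 rose (median -0.04), where 22.7% of all genes fell and 22.6% rose. The falls numbered 5 without day 6 replicate C, and on log2(TPM + 1) 4 fell and 10 rose. Among them, Malat1 was measured at 1915, 1453 and 2395 CPM at day 6 and 771, 534 and 687 CPM at day 12 (log2 fold change -1.53 ± 0.16 (SE), edgeR adjusted p = 2.42e-06), Rn7sk, the inhibitor of the elongation factor P-TEFb, at 44.8, 34.4 and 81.8 CPM at day 6 and 15.4, 9.83 and 16.9 CPM at day 12, and Kcnq1ot1 went from 11.4 ± 3.1 to 3.59 ± 0.50 CPM. Replicate C was highest at day 6 and replicate B lowest at day 12 for Malat1, Rn7sk, Hmcn1 and CT010467.1. Of 58 sense-intronic models 20 fell and 4 rose, and of 495 models not yet tested experimentally (the annotation class TEC) 155 fell and 10 rose. Rn7sk is not polyadenylated in its mature form, and the libraries are labelled as polyadenylated RNA.

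**Figure D5:**
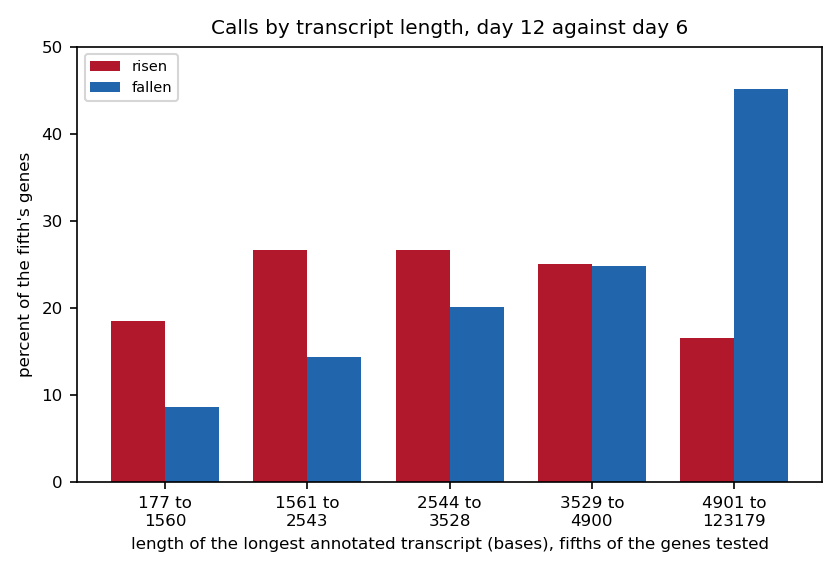
Percent of genes that rose or fell at day 12 against day 6 (edgeR adjusted p under 0.05) in 5 equal classes of the genes tested by the length of the longest annotated transcript in bases. The fallen share grows from 8.62% in the shortest class to 45.2% in the longest.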

How the data were processed

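RNA-seq of 9 mouse libraries was analysed: 3 untreated, 3 of day 6 and 3 of day 12. The authors deposited 1 table of counts and 1 of TPM (a length-corrected abundance with a fixed total per library) for 55487 genes and 4 transgene entries. RSEM 1.3.3, STAR 2.7.8a, cutadapt 2.3 and FastQC 0.11.8 were used with GRCm38, per the submitters' processing notes. How each was run, including strand and annotation, is not given in the sources used here. Reads of overlapping genes on opposite strands therefore may not be told apart, which touches 58 of the named genes, Pax8 among them, and 25 share exon bases with a gene on the same strand. Gene positions were taken from GENCODE M21, where 55227 identifiers matched. Promoter sequences were taken from RefSeq (GRCm38.p6).

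The counts as deposited were scaled by TMM, and genes were kept by filterByExpr by group, which left 16353. Day 12 and day 6 were compared with edgeR's quasi-likelihood F test (version 4.0.16, R 4.3.3), fitted to the 9 libraries together (6 residual degrees of freedom). Adjusted p-values are Benjamini-Hochberg values over the genes tested, and 0.05 was the threshold. Depth over the 9 libraries was 56398623 to 86767334 counts, so 1 count was worth 0.0119 to 0.0172 CPM. The code was tested on simulated data.

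Named genes were Pax8, Pax2, the 15 largest rises and the 15 largest falls among called genes whose libraries did not overlap and whose higher group reached 5 CPM (unnamed gene models left out), the 10 largest rises and the 10 largest falls in CPM outside the mitochondrial genome, the 4 smallest adjusted p of each of 52 gene lists, and the mitochondrially encoded genes. Genes that define a cell type were named whether called or not, and any other gene was named afterwards. Some genes that the rule names are not reported here. The comparison, its members and the lists were chosen with earlier results of these data known. Gene lists are described by counts and medians.

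Alternatives were RLE and upper-quartile scaling, no filter, DESeq2 1.42.0, the 6 libraries alone, the replicate letter as a block, each library left out, limma 3.58.1 on log2(TPM + 1) and log2(TPM + 0.1), mitochondrially encoded genes left out and, chosen after seeing the data, a trend on transcript length removed.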

Additional observations from a re-analysis of the deposited data

Results flagged for a closer look

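A tdTomato entry in the table, one of 4 that name no mouse gene and that the comparison did not use, held 4.03, 4.03 and 4.54 CPM at day 6 and 5.52, 4.34 and 5.25 CPM at day 12, a mean of 5.04 CPM at day 12. It stood at 2.67 CPM in the untreated cells, where it was present as well. It is listed because a signal was measured outside the genes compared, above the level of the untreated libraries. Day 6 and day 12 overlapped, and no test was run. The labels do not name a tdTomato reporter. The eGFP and mCherry entries were at 0 counts in all 9 libraries.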

How the results depend on the processing

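Counts of risen and fallen genes, 3702 and 3706, kept within 1.5 times of these values with RLE and upper-quartile scaling, no filter, DESeq2, the 6 libraries alone, mitochondrially encoded genes left out and the length trend removed, but the split moved. On log2(TPM + 1), 7998 rose and 878 fell, 127 and 33 of them by at least 2-fold. With a pseudocount of 0.1, 7927 rose and 873 fell, 110 of the falls by at least 2-fold. Without a filter, falls of at least 2-fold numbered 543. Leaving out 1 library at a time gave 3203 to 3429 rises and 3222 to 3395 falls, of which 368 to 391 and 256 to 391 were at least 2-fold. Same-letter libraries deviated together no more than others (r = -0.0166, -0.0081 and -0.0503). With 3 libraries a day these deviations are tied to each other, so the check cannot decide whether letters mark a shared culture or batch. With the replicate block, 3593 rose and 3628 fell, 364 and 322 by at least 2-fold. Of 228 named genes, 207 kept direction and side of the threshold under every alternative that gave them a value. Directions turned for Cdkn1b (0.049 and 0.0496 with pseudocounts 1 and 0.1) and Slc30a7 (0.381 and 0.398), and for mt-Nd3, which was not called, at -0.0261 without the length trend. The cause was not tested. Leaving out mitochondrially encoded genes gives no value for those genes. Depth limits genes with a few counts at day 6, such as Slc6a18, Cyp27b1 and Havcr1.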
